A study of Mus musculus with 6 samples.

Results

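The Wnt genes of the fetal cortex at E14.5 were taken from the series' expression table by name: the Wnt ligands, the Fzd receptors with the co-receptors Lrp5 and Lrp6, the secreted agonists Rspo1 and Rspo3, the secreted Sfrp and Dkk antagonists, the Dvl transducers, Axin1, Apc and Gsk3b of the destruction complex, the nuclear factors Lef1, Tcf7, Tcf7l1 and Tcf7l2, and the feedback genes Axin2 and Nkd1. Genes whose level averaged under 0.5 TPM were left out, which kept 37 of the 53 matching genes, out of 16295 named genes at that level and 56198 entries in all. TPM is an abundance per transcript length, and each sample sums to the same total. RNA-Seq was performed on the cerebral cortex of C57BL/6 fetuses whose dams breathed 100% O2 for 6 h (Ctr group, 3 samples) or 2.5% sevoflurane in 97.5% O2 for 6 h (Sevo group, 3 samples) on gestational day 14.5, and no transgene or deletion is named for either group. Sevoflurane is an inhaled general anaesthetic, and the comparison asks whether maternal exposure went with a difference in the RNA of these genes in the fetal cortex. The sources used here give neither the number of fetuses or litters in a sample nor their sex. The p-values therefore set group differences against the spread between these samples only, which may not be that between dams.

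Wnt proteins are secreted, lipid-modified ligands that bind Fzd receptors together with the co-receptors Lrp5 or Lrp6. In cells without the signal, a complex of Axin, Apc, Gsk3b and casein kinase marks beta-catenin for destruction. Ligand binding recruits Dvl proteins, the complex is held off, and beta-catenin enters the nucleus and works with Tcf and Lef factors on target genes, among them Axin2 and Nkd1, which dampen the signal. In the embryonic forebrain the cortical hem, a signalling centre at the medial edge of the cortex, is a source of Wnt3a, Wnt2b and Wnt5a, and Wnt7a and Wnt7b are made within the cortex itself.

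Ctr replicate 2 and Sevo replicate 2 stood apart by cell type markers. Ctr replicate 2 held choroid plexus RNA, with a summed level of 6 markers of 772.2 TPM against 2.31 to 26.98 TPM in the other samples, and meningeal RNA, with 107.22 against 5.08 to 24.68 TPM over 7 markers. Sevo replicate 2 had the highest summed level of 7 ventral telencephalon markers, 183.2 against 65 to 140.05 TPM. All 7 dorsal telencephalon markers of the labelled tissue were measured, Emx1 for example at 125.23 to 142.63 TPM. Of the 4 thalamic markers Gbx2 and Olig3 were at or near 0, while Lhx9, at 7.06 to 13.82 TPM, and Slc17a6, at 36.38 to 50.33 TPM and higher in every Sevo sample, were not. The 7 radial glia markers summed to 2227.58 to 2414.22 TPM in Ctr and to 1819.55 to 1969.83 TPM in Sevo, though most of that sum is Fabp7 and Vim, Sox2 and Slc1a3 had log2 differences of 0.28 and 0.06, and the groups did not overlap for Fabp7 alone. Also lower without overlap were Eomes and Gadd45g of the 4 intermediate progenitor markers, by log2 differences of -0.38 and -0.72, and Tbr1, a factor of early cortical neurons, at -0.49. The intermediate progenitor markers summed to 593.71 to 615.55 TPM in Ctr and to 601.05, 458.4 and 321.74 TPM in Sevo. Entries of at least 1 TPM numbered 14485 to 15193 per sample. Since TPM carry no read depth, counting intervals could not be given. The exons of Axin2, Rspo3, Dvl1, Dvl2, Wnt5a, Wnt7b, Fzd6, Lef1, Sfrp2 and Tcf7l1 overlap those of other annotated genes, and without strand such reads cannot be told apart.

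None of the 37 Wnt genes had an adjusted p under 0.05 in limma over the 16295 genes tested, in either direction. Across all genes the same test called 1 gene lower, 0.00614% of those tested, and 0 higher. At an unadjusted p under 0.05, limma placed 3 of the 37 Wnt genes higher (Wnt5b, Dkk3 and Dvl1) and 2 lower (Fzd3 and Lrp6) in the Sevo group. That is 13.5% of the Wnt genes, where 18.2% of all genes lay under that value (6.46% higher and 11.8% lower). The groups did not overlap in 6 Wnt genes, the 5 above and Lrp5, or 16.2%, against 25.8% of all genes (9.43% higher and 16.3% lower). With all samples both shares were thus below those of all genes, though they rest on few genes. The log2 difference between the groups was above 0 in 17 of 37 Wnt genes, or 45.9%, against 42.6% of all genes, and its median was -0.02, against -0.05. All differences are on the scale of log2(TPM + 1), Sevo minus Ctr, which understates the change of genes of low abundance and can set the sign where a sample is at 0: Wnt3a was at 0.06 with a pseudocount of 1, -0.16 with 0.1 and -0.99 with 0.01, and Wnt9a moved from 0.14 to 0.61. In bulk tissue, fewer cells of a type and less RNA per cell cannot be told apart. The part of the progenitor and neuron markers in any of these differences was not tested. Without Sevo replicate 2, the counts at an unadjusted p under 0.05 were 3 higher and 4 lower (background 7.5% and 14%). Without both libraries that stood apart, they were 5 higher and 3 lower (background 6.19% and 9.85%), so the share higher was then above its background. Of these 8 genes, 2 (Dkk3 and Lrp6) were among the 5 above. The others were Wnt3a, Wnt9a, Fzd10 and Rspo3, whose lowest Sevo value was in the library left out, and Fzd2 and Sfrp1, whose highest was, so their differences move that way by construction. In that setting 9 Wnt genes were higher and 9 lower without overlap (background 21% and 28.9%).

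**Figure D1:**
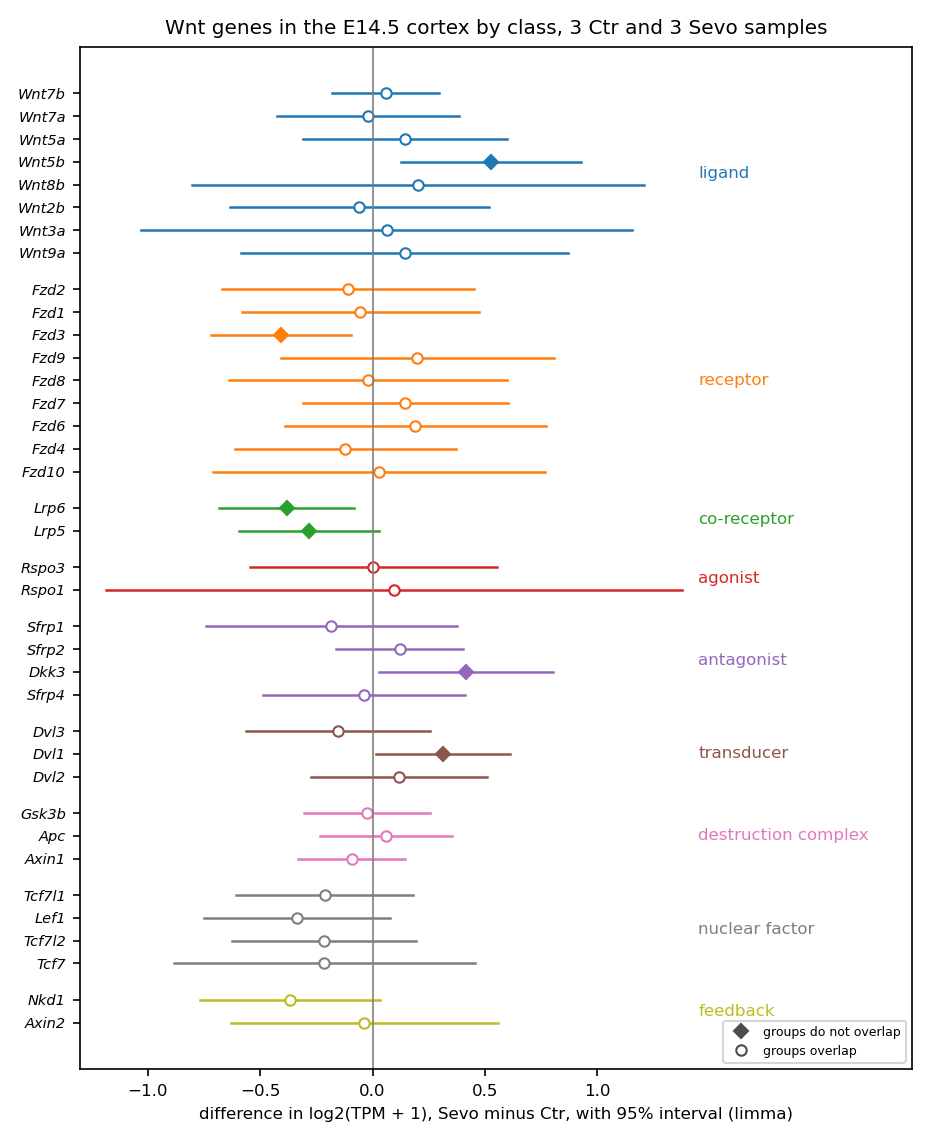
Difference in log2(TPM + 1) between the Sevo and Ctr groups (x axis) for the 37 Wnt genes, grouped by class and ordered by mean TPM within a class, with 95% intervals from limma on 3 against 3 samples. Filled diamonds are genes whose groups did not overlap: Wnt5b, Dkk3 and Dvl1 lie to the right of 0, and Fzd3, Lrp6 and Lrp5 to the left.

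The ligand RNA of the cortex was mostly that of Wnt7b. Wnt7b, on chromosome 15, was at 125.92, 115.66 and 122.7 TPM in the Ctr samples and 112.87, 142.42 and 125.84 TPM in the Sevo samples. It made up 75.5% to 81.6% of the summed TPM of the 8 ligands in each sample. The groups overlapped, and its log2 difference was 0.06 (SE 0.10, limma adjusted p = 0.799). Wnt7a, its closest relative, was second, with 18.6 ± 1.71 TPM in Ctr (SD, n = 3) and 18.6 ± 4.47 TPM in Sevo, a log2 difference of -0.02. Both Wnt7 genes were highest in Sevo replicate 2. Wnt5a, a ligand best known for signalling without beta-catenin, came next, between 4.47 and 7.47 TPM over the 6 samples.

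Wnt5b was the ligand with the smallest p. It was at 3.14, 3.2 and 2.65 TPM in the Ctr samples and at 4.64, 5.59 and 4.11 TPM in the Sevo samples. Every Sevo sample lay above every Ctr sample, with Sevo replicate 2 highest and Ctr replicate 3 lowest. The log2 difference was 0.53 (SE 0.17, limma unadjusted p = 0.0163, adjusted p = 0.189), and the two-sided exact permutation p was 0.1, the smallest that 3 against 3 samples can give. Wnt5b (chromosome 6, 119432531 to 119544347; GENCODE M21 on GRCm38, as all gene positions here) is, like Wnt5a, a ligand known mainly for signalling without beta-catenin. Its share of the summed ligand TPM was 1.67% to 2.15% in Ctr and 2.60% to 3.11% in Sevo. Without Ctr replicate 3 the difference was 0.46 (limma unadjusted p = 0.0630), and without both libraries that stood apart it was 0.47 (limma unadjusted p = 0.0573).

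The other 4 ligands were scarce. Wnt8b, a ligand of the medial cortex, ranged from 0.67 to 4.09 TPM. Wnt2b ranged from 0.63 to 1.53 TPM, Wnt3a from 0 to 1.9 TPM and Wnt9a from 0.19 to 1.29 TPM. Their groups overlapped, their log2 differences lay between -0.06 and 0.20, and none had an unadjusted p under 0.05 from limma. Each was lowest in Ctr replicate 1 among the Ctr samples and in Sevo replicate 2 among the Sevo samples, an order described with the other genes that share it.

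Promoter sequences were searched for CTTTGA on both strands, the core of the sites that Tcf and Lef factors bind. RefSeq windows on GRCm38.p6, from 250 bases before to 50 bases after a transcription start, were at hand for 23 of the 37 Wnt genes, with 30 windows in all. The letters occurred in 4 windows, or 13.3%, 1 each of Wnt5b, Lef1, Fzd1 and Gsk3b, against 16% of all 32851 windows of that length. The windows of Wnt5b and Lef1 are shown because Wnt5b is the ligand with non-overlapping groups and Lef1 is both a nuclear factor and a known target of the pathway. They belong to starts inside the 2 genes, other windows of the same genes held no match, and the TPM do not tell the starts apart. Capitals mark CTTTGA, or TCAAAG where the match is on the other strand.
Wnt5b, chr6:119449337-119449636, minus strand: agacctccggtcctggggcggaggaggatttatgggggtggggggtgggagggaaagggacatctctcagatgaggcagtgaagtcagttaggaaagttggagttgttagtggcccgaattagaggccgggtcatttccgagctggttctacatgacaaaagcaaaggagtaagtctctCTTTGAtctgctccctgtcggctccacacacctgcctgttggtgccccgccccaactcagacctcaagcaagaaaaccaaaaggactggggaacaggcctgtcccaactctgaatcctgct
Lef1, chr3:131156044-131156343, plus strand: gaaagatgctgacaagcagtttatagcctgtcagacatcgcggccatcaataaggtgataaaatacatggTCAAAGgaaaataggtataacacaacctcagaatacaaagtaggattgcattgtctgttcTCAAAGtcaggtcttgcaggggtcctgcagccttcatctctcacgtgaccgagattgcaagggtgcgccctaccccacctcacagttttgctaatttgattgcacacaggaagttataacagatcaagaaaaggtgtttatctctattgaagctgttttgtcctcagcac
The match of Wnt5b begins 71 bases before the start, and those of Lef1 begin 180 and 120 bases before it. A match describes these letters only.

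**Figure D2:**
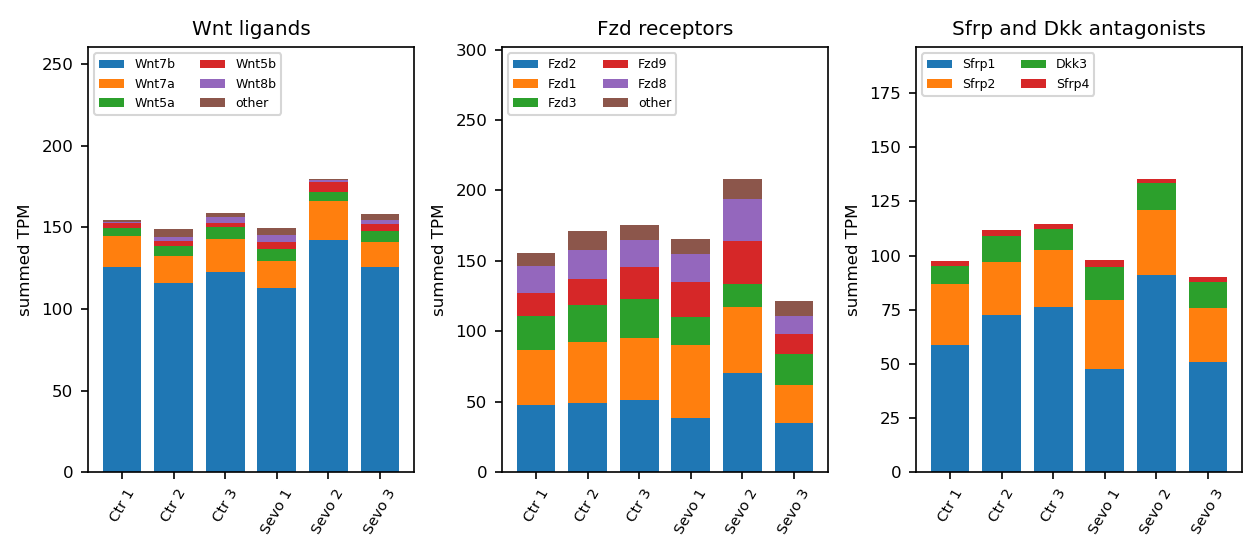
Summed TPM (y axis) of the Wnt ligands, the Fzd receptors and the Sfrp and Dkk antagonists in each of the 3 Ctr and 3 Sevo samples, stacked by gene, with genes beyond the first 5 joined as other. Wnt7b fills most of each ligand bar, and the receptor sum is widest spread in the Sevo group, from 121.67 TPM in replicate 3 to 208.15 TPM in replicate 2.

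Among the receptors, Fzd2 and Fzd1 were the most abundant of the 9 Fzd genes measured. Fzd2 was at 47.8, 49.07 and 50.81 TPM in the Ctr samples and 38.34, 70.62 and 34.71 TPM in the Sevo samples. Sevo replicate 2 stood above all Ctr samples and the other Sevo samples stood below them. The log2 difference was -0.11 (SE 0.24, limma adjusted p = 0.846). With a sample left out it ranged from -0.42 (without Sevo replicate 2, limma unadjusted p = 0.00243) to 0.08. Fzd1 was at 41.9 ± 2.92 TPM in Ctr (SD, n = 3) and 41.8 ± 13.1 TPM in Sevo.

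Fzd3 was the receptor with the smallest p and the only receptor of the 9 whose groups did not overlap. It was at 24.3, 26.53 and 27.88 TPM in the Ctr samples and at 20.09, 16.59 and 22.16 TPM in the Sevo samples. All Sevo samples lay below all Ctr samples, with Sevo replicate 2 lowest. Its log2 difference was -0.41 (SE 0.13, limma unadjusted p = 0.0167, adjusted p = 0.189; exact permutation p = 0.1). Fzd3 (chromosome 14, 65192449 to 65262463) is known from mouse mutants for its need in axon tracts of the forebrain, through the planar cell polarity branch. It is a long transcript, with 12804 annotated exon bases against a median of 3946 over all genes tested. With a trend on exon length taken out of each sample, a setting chosen after seeing the data, its difference was -0.31 (limma unadjusted p = 0.0595). Without both libraries that stood apart it was -0.29 (limma unadjusted p = 0.0803), without Ctr replicate 2 alone -0.40 (limma unadjusted p = 0.0532) and without Ctr replicate 3 it was -0.37 (limma unadjusted p = 0.0669).

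The other receptors did not separate the groups. Fzd9 had 19.5 ± 3.26 TPM in Ctr (SD, n = 3) and 23.3 ± 8.21 TPM in Sevo, and its log2 difference of 0.20 became 0.50 (limma unadjusted p = 0.0274) without Sevo replicate 3 and -0.02 (limma unadjusted p = 0.935) without Sevo replicate 2. Fzd8 had 19.5 ± 0.85 and 20.3 ± 8.50 TPM, with 29.29 TPM in Sevo replicate 2 and 12.37 TPM in Sevo replicate 3. Fzd7 lay between 5.7 and 9.5 TPM, Fzd6 between 1.84 and 4.12 TPM, Fzd4 between 0.61 and 1.35 TPM and Fzd10 between 0.17 and 1.3 TPM. Over the 9 receptors, 4 log2 differences were above 0 and 5 below, with a median of -0.02 against -0.05 over all genes. That median changed sign, from -0.16 to 0.09 with a sample left out and to 0.07 under median centring. Median centring moved the median of all genes as well, from -0.05 to 0.04. The spread between samples was wider in the Sevo group: the median SD of the receptors on the log2 scale was 0.11 in the Ctr group and 0.37 in the Sevo group. It was larger in the Sevo group in 7 of 9 receptors and in 26 of the 37 Wnt genes, or 70.3%, where 73.0% of all genes showed the same.

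Both co-receptors, which pair with Fzd receptors in signalling through beta-catenin, were lower in the Sevo group, with no overlap between the samples. Of all genes, 16.3% were lower without overlap. Lrp6 was at 21.51, 20.57 and 22.62 TPM in the Ctr samples and 13.98, 17.81 and 17.36 TPM in the Sevo samples. Sevo replicate 1 was the lowest of all, and the gap between the groups was wider than the range of the Ctr samples. The log2 difference of Lrp6 (chromosome 6, 134446476 to 134566965) was -0.38 (SE 0.13, limma unadjusted p = 0.0189, adjusted p = 0.197; exact permutation p = 0.1). Without Ctr replicate 1 the limma unadjusted p was 0.0563 at the same difference, and without Ctr replicate 3 it was 0.0715 at -0.35.

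Lrp5 was at 11.97, 12.44 and 14.12 TPM in the Ctr samples and at 11.48, 9.8 and 9.84 TPM in the Sevo samples. Sevo replicate 1 came close to Ctr replicate 1, so the groups were separate by a narrow margin. For Lrp5 (chromosome 19, 3584828 to 3686564) the log2 difference was -0.28 (SE 0.13, limma unadjusted p = 0.0692, adjusted p = 0.316), and without Sevo replicate 1 it was -0.35 (limma unadjusted p = 0.0407). The TPM of the co-receptors together came to 33.48, 33.01 and 36.74 in the Ctr samples and to 25.46, 27.61 and 27.2 in the Sevo samples, while the receptor sums of the groups overlapped. Lrp6 and Lrp5 are also long, with 13672 and 9738 exon bases. With the trend on exon length taken out, Lrp6 was at -0.28 (limma unadjusted p = 0.0352), and the median of the pair moved from -0.33 to -0.23. Under quantile normalization Lrp6 was at -0.29 (limma unadjusted p = 0.0534). The sign of both co-receptors was negative in all settings run.

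**Figure D3:**
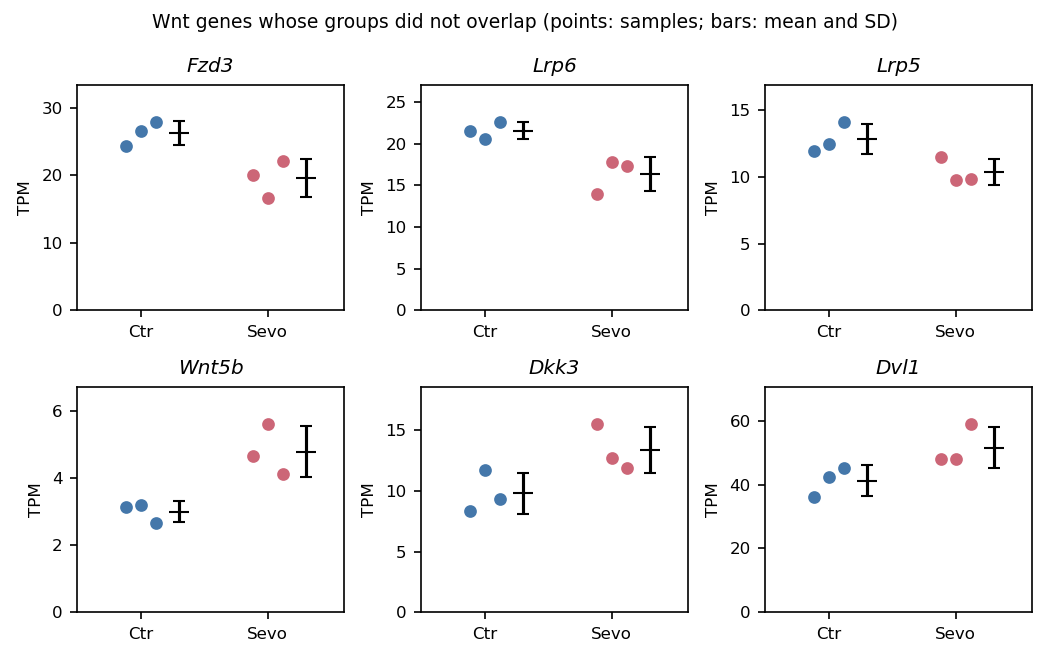
TPM (y axis, from 0) of the 6 Wnt genes whose groups did not overlap, with 1 point per sample (blue Ctr, red Sevo) and bars for the mean and SD of 3 samples. Fzd3, Lrp6 and Lrp5 are lower in all Sevo samples; Wnt5b, Dkk3 and Dvl1 are higher, and the narrowest gap is that of Dkk3, between 11.71 TPM in the highest Ctr sample and 11.91 TPM in the lowest Sevo sample.

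R-spondins strengthen Wnt signals by keeping Fzd and Lrp proteins at the cell surface. Rspo3 was at 22.65, 23.94 and 19.97 TPM in the Ctr samples and 28.57, 14.55 and 26.03 TPM in the Sevo samples. Sevo replicates 1 and 3 lay above all Ctr samples and Sevo replicate 2 lay below them. The log2 difference was 0.00 (SE 0.24, limma adjusted p = 0.997). With a sample left out it ranged from -0.17 to 0.29 (without Sevo replicate 2, limma unadjusted p = 0.0425). Rspo1 varied most, at 0.48, 5.45 and 2.38 TPM in the Ctr samples and 3.8, 0.96 and 3.18 TPM in the Sevo samples. The Sevo values lay within the range of the Ctr samples, with a log2 difference of 0.10 (SE 0.55, limma adjusted p = 0.949).

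Of the antagonists, which bind Wnt or its receptors outside the cell, Sfrp1 was the most abundant. Sfrp1 was at 58.69, 72.33 and 76.22 TPM in the Ctr samples and 47.44, 91.07 and 50.73 TPM in the Sevo samples. As for Fzd2, Sevo replicate 2 was above all Ctr samples and the other Sevo samples below them. Its log2 difference was -0.18 (SE 0.24, limma adjusted p = 0.731). With a sample left out it ranged from -0.48 (without Sevo replicate 2, limma unadjusted p = 0.00979) to -0.01. Sfrp2 varied less between samples, with 26.4 ± 1.62 TPM in Ctr (SD, n = 3) and 28.9 ± 3.44 TPM in Sevo, and Sfrp4 lay between 1.84 and 2.95 TPM.

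Dkk3, which belongs to the Dickkopf family but is not a typical inhibitor of Lrp6, was at 8.36, 11.71 and 9.37 TPM in the Ctr samples and 15.5, 12.74 and 11.91 TPM in the Sevo samples. Each Sevo sample lay above the Ctr samples, though Sevo replicate 3 exceeded Ctr replicate 2 by little. The log2 difference of Dkk3 (chromosome 7, 112116017 to 112159057) was 0.42 (SE 0.17, limma unadjusted p = 0.0390, adjusted p = 0.248; exact permutation p = 0.1). The unadjusted value was above 0.05 without any 1 of Ctr replicate 1 (0.32, limma unadjusted p = 0.145), Ctr replicate 3 (0.39, limma unadjusted p = 0.109), Sevo replicate 1 (0.31, limma unadjusted p = 0.121) and Sevo replicate 2 (0.44, limma unadjusted p = 0.0539). Among Sfrp and Dkk genes, 2 differences were above 0 and 2 below.

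The Dvl proteins carry the signal from the receptors. Dvl3 was the most abundant, at 47.77, 56.48 and 65.73 TPM in the Ctr samples and 39.58, 59.18 and 54.85 TPM in the Sevo samples, with overlapping groups and a log2 difference of -0.15 (SE 0.18, limma adjusted p = 0.693). Dvl1 was at 36, 42.47 and 45.27 TPM in the Ctr samples and 47.95, 47.95 and 58.81 TPM in the Sevo samples. All Sevo samples were higher than all Ctr samples, by a margin smaller than the range of the Ctr samples. For Dvl1 (chromosome 4, 155847402 to 155859303) the log2 difference was 0.32 (SE 0.13, limma unadjusted p = 0.0406, adjusted p = 0.253; exact permutation p = 0.1). The gene that its exons overlap is Tas1r3, a taste receptor. The unadjusted value was above 0.05 without Ctr replicate 1 (0.22, limma unadjusted p = 0.153), Ctr replicate 2 (0.34, limma unadjusted p = 0.0723) or Sevo replicate 3 (0.22, limma unadjusted p = 0.121). It was also above 0.05 under eBayes without trend (limma unadjusted p = 0.065). Dvl2 had 37.0 ± 2.69 TPM in Ctr (SD, n = 3) and 40.9 ± 10.2 TPM in Sevo.

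In the destruction complex the groups overlapped for all 3 genes. Gsk3b, the kinase that marks beta-catenin, was at 48.56, 45.79 and 53.51 TPM in the Ctr samples and 41.83, 50.59 and 53.31 TPM in the Sevo samples. The highest value was in the Ctr group and the lowest in the Sevo group, with a log2 difference of -0.02 (SE 0.12, limma adjusted p = 0.936). Axin1, the scaffold, was at 29.46, 29.81 and 30.6 TPM in the Ctr samples and 25.72, 28.62 and 29.96 TPM in the Sevo samples. Sevo replicates 1 and 2 lay below all Ctr samples and Sevo replicate 3 among them, and the difference was -0.09 (SE 0.10, limma adjusted p = 0.680). Apc, the other scaffold, had 41.1 ± 4.66 TPM in Ctr (SD, n = 3) and 42.9 ± 4.95 TPM in Sevo. The 95% intervals of all 3 log2 differences lay within -0.33 and 0.35.

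The nuclear factors all had log2 differences below 0, without any whose groups were separate. Tcf7l1, mostly a repressor, was at 11.93, 14.6 and 16.83 TPM in the Ctr samples and at 10.86, 14.49 and 11.58 TPM in the Sevo samples. Its highest Sevo sample lay within the Ctr range, and its log2 difference was -0.21 (SE 0.17, limma adjusted p = 0.548). Lef1 was at 10, 10.7 and 12.11 TPM in the Ctr samples and at 10.19, 8.86 and 6.59 TPM in the Sevo samples. Sevo replicates 2 and 3 lay below every Ctr sample, and Sevo replicate 1 just above the lowest of them. The log2 difference of Lef1 was -0.34 (SE 0.18, limma unadjusted p = 0.0961, adjusted p = 0.360), and ranged from -0.46 without Sevo replicate 1 (limma unadjusted p = 0.0397) to -0.18 without Sevo replicate 3 (limma unadjusted p = 0.265). Tcf7l2 and Tcf7 had 4.46 ± 0.66 and 3.63 ± 0.89 TPM in Ctr (SD, n = 3) and 3.69 ± 0.50 and 3.12 ± 1.57 TPM in Sevo, with log2 differences of -0.22 and -0.21. The median of the 4 factors was -0.22, against -0.05 over all genes, and each stayed below 0 in every setting run. Their median ranged from -0.36 to -0.13 with a sample left out and was -0.13 under median centring, where that of all genes was 0.04.

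Axin2 and Nkd1 are widely used as readouts of signalling through beta-catenin, since both are induced by it and both restrain it. Nkd1, the more abundant, was at 21.64, 33.16 and 26.91 TPM in the Ctr samples and 23.21, 17.94 and 20.9 TPM in the Sevo samples. Sevo replicates 2 and 3 were below all Ctr samples and Sevo replicate 1 was not. Its log2 difference was -0.37 (SE 0.17, limma unadjusted p = 0.0675, adjusted p = 0.313), and with a sample left out it ranged from -0.52 (without Ctr replicate 1, limma unadjusted p = 0.0207) to -0.22 (without Ctr replicate 2, limma unadjusted p = 0.247). Without both libraries that stood apart it was -0.13 (limma unadjusted p = 0.447). Axin2 was at 13.16, 20.93 and 19.29 TPM in the Ctr samples and 22.27, 18.67 and 11.74 TPM in the Sevo samples. The lowest and the highest values were both in the Sevo group, and the log2 difference was -0.04 with a 95% interval from -0.63 to 0.56. With a sample left out the difference of Axin2 ranged from -0.23 to 0.21.

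Some Wnt genes shared an order of the samples within each group. In 10 of 37 Wnt genes, or 27%, Ctr replicate 1 was the lowest Ctr sample and Sevo replicate 2 the lowest Sevo sample, where 9.94% of all genes had this order. The order was noticed after the values were seen, and no test was made of it. The genes with this order were Wnt3a, Wnt8b, Wnt2b, Wnt5a, Wnt9a, Rspo1, Fzd10, Fzd3, Lrp5 and Nkd1. Among them Fzd3 and Lrp5 were also lower in every Sevo sample than in any Ctr sample, and the groups of the others overlapped. Wnt3a was at 0.12, 1.9 and 0.73 TPM in the Ctr samples and at 1.86, 0 and 1.24 TPM in the Sevo samples. Rspo2, an R-spondin of the hem marker list, had the same order, at 0.47, 5.16 and 1.59 TPM against 5.54, 0.4 and 3.36 TPM, and so had Lmx1a, a transcription factor of the hem, at 0.23, 1.92 and 0.85 TPM against 1.14, 0.15 and 0.51 TPM. The other 5 of the 7 hem markers (Msx1, Msx2, Bmp4, Bmp6 and Gdf7) did not have it. Nor was it particular to the hem list: 2 of the 6 choroid plexus markers (Folr1 and Clic6) and 1 of the 4 microglia markers had it too. The 7 hem markers summed to 1.56, 20.27 and 3.57 TPM in the Ctr samples and 9.92, 2.03 and 5.06 TPM in the Sevo samples, and 2 of them were below a mean of 0.5 TPM. Sp5, a known target of the pathway, was at 0.57, 2.55 and 2.04 TPM against 4.34, 0.45 and 2.89 TPM. The part of hem or choroid plexus tissue in these levels was not tested.

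A different set was highest of the Sevo group in Sevo replicate 2. It held 15 of 37 Wnt genes, or 40.5%, near the 37.5% of all genes, while 12, or 32.4%, were lowest there, near the 35.4% of all genes. The 15 included 5 of the 9 receptors (Fzd2, Fzd8, Fzd9, Fzd7 and Fzd4). In the same library Dlx2 and Gad1, a ventral transcription factor and an enzyme of GABA synthesis, were at 41.93 and 27.14 TPM against 10.18 to 17.11 and 8.76 to 16.68 TPM in the other samples. Of the 7 ventral markers 5 were highest there, while Dlx1 and Lhx6 were highest in Sevo replicate 3. The part of ventral tissue in the receptor levels was not tested.

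**Figure D4:**
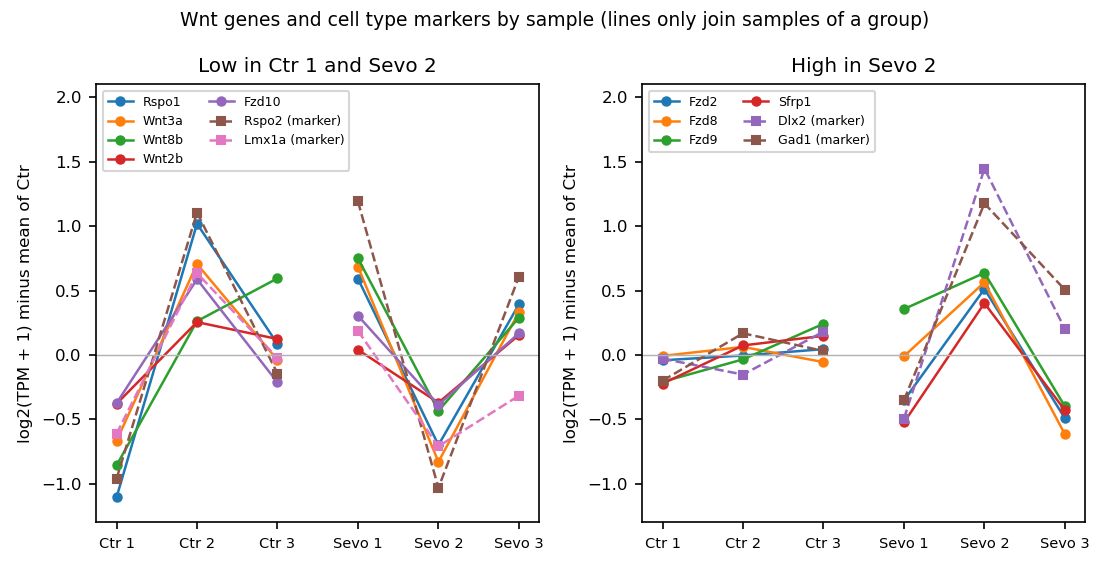
Level of single genes in each sample, as log2(TPM + 1) minus the mean of the Ctr group (y axis), for Wnt genes (circles, solid lines) and cell type markers (squares, dashed lines). On the left, Rspo1, Wnt3a, Wnt8b, Wnt2b and Fzd10 are lowest in Ctr replicate 1 and Sevo replicate 2, as are Rspo2 and Lmx1a. On the right, Fzd2, Fzd8, Fzd9 and Sfrp1 are highest in Sevo replicate 2, as are Dlx2 and Gad1. The markers shown were picked: Rspo2 and Lmx1a are the only 2 of the 7 hem markers with that order. Not shown are 2 of the 6 choroid plexus markers and 1 of the 4 microglia markers that have it too. Of the 7 ventral markers 5 are highest in Sevo replicate 2, and Dlx1 and Lhx6 are not.

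Of 63 other genes of the pathway in a list taken from general knowledge, 56 were measured at 0.5 TPM or more. None passed an adjusted p of 0.05 from limma. At an unadjusted p under 0.05, 2 were higher and 4 lower, or 10.7% of the list, and the groups did not overlap in 3 higher and 6 lower, or 16.1%. These shares were again below those of all genes, 18.2% and 25.8%. Ctnnb1, the gene of beta-catenin, was at 930.78, 949.96 and 845.89 TPM in the Ctr samples and 1059.21, 895.68 and 948.59 TPM in the Sevo samples. Its groups overlapped, and the log2 difference was 0.09 (limma unadjusted p = 0.353, adjusted p = 0.646).

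The 6 genes of that list under an unadjusted p of 0.05 spanned several steps of the pathway. Tnks2, a tankyrase that marks Axin for degradation, was at 68.22, 65.44 and 62.37 TPM in the Ctr samples and at 54.61, 55.53 and 53.74 TPM in the Sevo samples. The gap between the groups was wider than the range of either, and the log2 difference was -0.25 (limma unadjusted p = 0.0171, adjusted p = 0.190). Pygo2, a nuclear cofactor of beta-catenin, was at 44.96, 44.3 and 46.38 TPM against 37.04, 37.8 and 40.17 TPM, a difference of -0.23 (limma unadjusted p = 0.0316). Csnk1g1, a casein kinase of the Lrp6 step, was at 16.12, 15.48 and 16.76 TPM against 12.4, 14.19 and 11.82 TPM, a difference of -0.31 (limma unadjusted p = 0.0353). All 3 were lower in every Sevo sample. None of them stayed under 0.05 when each sample was centred on its median, by quantile normalization or with the trend on exon length taken out. Under median centring Tnks2 was at -0.17 (limma unadjusted p = 0.103), Pygo2 at -0.15 (limma unadjusted p = 0.157) and Csnk1g1 at -0.23 (limma unadjusted p = 0.101). With a sample left out, Tnks2 was above 0.05 without Ctr replicate 1 or 2, and Pygo2 without Ctr replicate 1, 2 or 3 or Sevo replicate 1. Csnk1g1 was above 0.05 without any sample other than Sevo replicate 2.

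The remaining 3 act at other points. Scrib, a cell polarity scaffold, was at 74.32, 78.45 and 87.28 TPM in the Ctr samples and 66.75, 62.96 and 67.73 TPM in the Sevo samples, a log2 difference of -0.28 (limma unadjusted p = 0.0190). Dact3, a Dvl-binding inhibitor, was at 13.74, 15.75 and 15.31 TPM against 17.28, 24.25 and 20 TPM, a difference of 0.42 (limma unadjusted p = 0.0220). Prickle2, of the planar cell polarity branch, was at 3.05, 2.63 and 2.63 TPM against 3.91, 3.94 and 4.39 TPM, a difference of 0.43 (limma unadjusted p = 0.0267). The groups of these 3 genes did not overlap either, with Scrib lower and Dact3 and Prickle2 higher in the Sevo group. Scrib was at -0.19 under median centring (limma unadjusted p = 0.0860), and was also above 0.05 by quantile normalization, with the length trend taken out and without Ctr replicate 3 (limma unadjusted p = 0.0728). Dact3 and Prickle2 were above 0.05 in some settings with a sample left out, Dact3 without Ctr replicate 1 or 3 and Prickle2 without Ctr replicate 2 or 3 or Sevo replicate 3.

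The 16 matching genes below the minimum were not tested. Wnt10a was nearest to it, with a mean of 0.46 TPM, and Fzd10 and Wnt9a were the lowest genes above it, with 0.60 and 0.63 TPM. Wnt3, Wnt4, Fzd5, Dkk2, Dkk1 and Wnt6 had means between 0.15 and 0.36 TPM, and Wnt6 reached 0.78 TPM in Ctr replicate 2, the library with choroid plexus and meningeal RNA. Wnt16, Wnt11, Sfrp5, Wnt1, Dkk4, Wnt2, Wnt9b and Wnt10b had means under 0.1 TPM, and Wnt8a was listed at 0 in every sample.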

How the data were processed

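Cortical RNA-Seq at E14.5 was compared between 3 Ctr and 3 Sevo samples, grouped by their deposited labels. The authors deposited TPM values per gene and sample. Bowtie 0.12.2, edgeR, mm8 and mm10 are listed in the submitters' processing notes with no role, and their exact use was not given in the sources used here. For its comparison the paper's methods name DESeq2, a test on counts, which could not be run on TPM. The depth per sample and the precision from counting are unknown. Of 56198 entries, 662 without a name were left out, and 27 names that had been turned into dates were restored from their identifiers.

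All 16295 named genes averaging 0.5 TPM or more were compared with limma 3.58.1 (R 4.3.3) on log2(TPM + 1), with eBayes following abundance, two-sided p and Benjamini-Hochberg adjustment over all of them. The script was tested on simulated data. Single genes were also given an exact permutation test over the 6 samples, whose smallest p is 0.1. Positions, exon lengths and overlaps came from GENCODE M21 (GRCm38/mm10), matched by Ensembl identifier, and promoters from RefSeq (GRCm38.p6). Tables and plots used Python 3.11.15, pandas 2.3.3, numpy 2.4.6 and matplotlib 3.10.9.

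The Wnt genes, the pathway list and the marker lists were chosen with earlier results of these data known. Values in every sample are given for the most abundant gene and the gene with the smallest unadjusted p of each of 9 classes, for any gene with separate groups and an unadjusted p under 0.05, and, of the other pathway genes, for Ctnnb1 and those with an unadjusted p under 0.05. Lrp5, Axin2, Wnt3a, Sp5 and the markers were given in full after their values were seen. Alternatives were pseudocounts of 0.1 and 0.01, minimum means of 1 and 5 TPM, no filter, median centring, quantile normalization, eBayes without trend, robust eBayes, a block on the replicate number, TPM rescaled without mitochondrial and haemoglobin genes, and each sample left out. Removal of a loess trend on exon length, and leaving out Ctr replicate 2 and Sevo replicate 2 together, were added after seeing the data.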

Additional observations from a re-analysis of the deposited data

How the results depend on the processing

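None of the 37 Wnt genes had an adjusted p under 0.05 in limma in any setting. The 5 Wnt genes with an unadjusted p under 0.05 kept their direction wherever they were tested, and 4 of them passed 0.05 again under quantile normalization, eBayes without trend, the length trend removed, or a minimum of 5 TPM (4 tested). With both libraries that stood apart left out 2 did, and with single samples left out between 1 (without Ctr replicate 3) and 4 did. The median difference of all genes was -0.051 as reported, 0.037 under median centring, -0.0094 under quantile normalization and -0.0084 with the length trend removed. In each case the cause was not tested.

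Over all genes, the count at an unadjusted p under 0.05 was 690 higher at a minimum of 5 TPM, and 1790 higher and 994 lower under median centring, against 1052 and 1918. The gene passing an adjusted p became 2 genes lower under eBayes without trend and 0 with both libraries left out. Wnt genes under 0.05 in the lower direction numbered 1 under quantile normalization and 1 with the length trend removed. With both libraries left out, 5 were higher under 0.05, and 9 higher and 9 lower did not overlap, against a background of 21% and 28.9%. The other pathway genes under 0.05 numbered 1 higher at 5 TPM and with no filter. They numbered 4 higher and 0 lower under median centring and with the length trend removed, and 0 lower under quantile normalization. All-gene counts under quantile normalization and with the length trend removed are not given here, so counts in those settings have no background. With both libraries left out, 12 of them were higher and 14 lower without overlap, against the same background of 21% and 28.9%. The co-receptor median was -0.25 under median centring, -0.24 under quantile normalization and -0.23 with the length trend removed, and with both libraries left out the ligand median was 0.35 and the agonist median 0.67.

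With each sample left out in turn, the all-gene counts ranged from 648 to 1222 higher and 1116 to 2289 lower at an unadjusted p under 0.05, and from 0 to 4 higher and 1 to 4 lower at an adjusted p. Wnt genes ranged from 1 to 3 higher and 0 to 4 lower under 0.05, and from 3 to 6 higher and 3 to 9 lower without overlap. The other pathway genes ranged from 0 to 3 higher and 1 to 6 lower, and from 3 to 7 higher and 7 to 11 lower without overlap. The share of all genes without overlap was not counted with a single sample left out, so these counts have no background. With both libraries left out it was 21% higher and 28.9% lower, against 9.43% and 16.3% with all samples. The transducer median ranged from -0.075 to 0.23.

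Same-numbered samples did not deviate together (r = -0.02, 0.02 and 0.01 across genes, which are not independent), so the numbers were not taken as pairs. With the replicate number as a block, 4 of the 5 Wnt genes stayed under 0.05 (Dkk3: limma unadjusted p = 0.0607), and the other pathway genes numbered 1 higher and 2 lower. The all-gene counts with the block are not given here.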
